A study of Homo sapiens with 60 samples.

Results

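The 26S proteasome is the large protease that degrades ubiquitin-tagged proteins, and its genes were followed here in HepG2, a human liver carcinoma cell line, after exposure to 7 herbal water extracts. The members were the protein-coding genes PSMA1 to PSMA7, PSMB1 to PSMB10, PSMC1 to PSMC6, PSMD1 to PSMD14, PSME1 to PSME4, PSMF1, PSMG1 to PSMG4, ADRM1 and POMP, chosen by name. All 48 were found among the 60675 genes of the deposited table, and all 48 passed the filter on low counts. Cells were treated for 24 h with an extract at 500, 100 or 20 µg/mL, or with vehicle. The vehicle was DMSO, at 0.1% per the sample labels and 2% per the series' design text. Single-herb extracts were made from Cinnamomi Cortex and Astragali Radix (set 6 of the sample codes) and from Cnidii Rhizoma and Rehmanniae Radix Preparata (set 5). Multi-herb formulas were Sagunja-tang and Samul-tang (set 7) and Palmul-tang (set 8). Vehicle, and each dose of the first 6 extracts, had 3 libraries. Palmul-tang had 1 library per dose, 60 libraries in all. No set held vehicle libraries of its own, so an extract and its set cannot be told apart against vehicle. Extracts of 1 set were therefore also compared with each other. Nothing in the labels says that the 3 libraries of a group came from separate cultures, so the p-values measure the spread between these libraries, which may be technical.

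The proteasome core, the 20S particle, is a stack of rings of alpha subunits (PSMA genes) and beta subunits (PSMB genes). PSMB5, PSMB6 and PSMB7 encode the constitutive catalytic subunits, and interferon-responsive PSMB8, PSMB9 and PSMB10 encode their immunoproteasome counterparts, which favour peptides suited to antigen presentation. The 19S particle caps the core: its base holds the ATPases (PSMC genes) that unfold substrates, and its lid holds the deubiquitinase PSMD14. PSME1 and PSME2 form the alternative cap PA28, PSMF1 encodes the inhibitor PI31, and POMP and the PSMG genes help assemble the core. Transcription of many of these genes is raised by NFE2L1 when proteasome activity is limiting, and the liver is a tissue in which that factor is studied.

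Library totals ran from 16484546 to 34412234 estimated read counts. Levels are given in CPM, a gene's share of its library's counts rescaled to a common total, and adjusted by TMM factors, which set the typical gene level between libraries, and changes are log2 differences from a quasi-likelihood fit in edgeR with a standard error (SE). A gene is called where its p-value, adjusted by Benjamini and Hochberg over the 16167 genes tested, is below 0.05. The scaling bears on 1 group above all: the libraries of Cinnamomi Cortex at 500 µg/mL had TMM factors of 0.833 to 0.862, against 1.01 to 1.04 in vehicle, and 19.4% to 22.3% of their counts came from mitochondrially encoded genes, against 14.4% to 16.7%. Without TMM, by total counts alone, the median of all genes tested shifted from -0.02 to -0.30 in that comparison. Changes under Cinnamomi Cortex are therefore stated relative to the typical gene, and calls that depend on it are named. Counts of members by total counts stand without the share of all genes called, and show only how calls depend on the scaling. The labelled line was checked by its hepatocyte markers: in each of the 60 libraries APOB reached at least 13374 CPM, AFP 10065 CPM and ALB 7821 CPM. In these bulk samples, fewer cells of a type and less RNA per cell cannot be told apart.

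In vehicle the 48 genes summed to 5382, 5292 and 5050 CPM, or 0.508% to 0.553% of all counts. Per kb of the longest principal transcript, PSMA6, an alpha-ring gene, stood highest, at 389 CPM per kb. PSME3, the nuclear PA28 gamma cap, followed at 272, and the catalytic PSMB5 at 215 CPM per kb. The immunoproteasome genes stood near the bottom of this order: PSMB8 at 18.6, PSMB9 at 8.34 and PSMB10 at 7.21 CPM per kb, ranks 41, 46 and 48 of 48. They held the same or the next place with the shortest principal transcript, at ranks 42, 46 and 48. Constitutive PSMB7 and PSMB6 reached 107 and 76.9 CPM per kb. The PA28 pair was abundant, with PSME1 at 171 and PSME2 at 165 CPM per kb, 2 values closer than the spread between vehicle libraries (SD 7.64 CPM of 172 for PSME1 and 11.7 CPM of 231 for PSME2). Across the 48 genes, the coefficient of variation among vehicle libraries ran from 0.28% for PSMB1 to 12.4% for PSMD10. Gene bodies on the opposite strand overlap several members, and the directional library kit keeps strand, but the strand setting of the authors' counting is not given in the sources used here. By total counts in vehicle, LAMA5 (334 CPM) overlaps ADRM1, RNF31 (92.2 CPM) overlaps PSME2, SLC22A23 (75.2 CPM) overlaps PSMG4, and TAP1 (39.0 CPM) and PSMB8 overlap PSMB9. Some overlaps lie on the same strand, where a strand setting cannot separate reads. Protein-coding genes without a symbol so overlap PSMB10 (5.5 against 8.99 CPM) and PSMA2 (6.48 against 61.9 CPM). The levels of all these members could include some of their partners' reads. Processed pseudogenes reached 7.38% of the parent's level for PSMC1 and at most 1.36% (PSME2) for the other members that have one.

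Cinnamomi Cortex at 500 µg/mL moved members in both directions. After TMM scaling the constitutive catalytic genes and most genes of the 19S lid were higher than in vehicle. The immunoproteasome genes PSMB8 and PSMB9, the PA28 gene PSME2 and the chaperone genes PSMD5, PSMG1, PSMG2 and PSMG4 were lower than in vehicle. PSMG1 and PSMG2 stood near that lower level at 20 µg/mL too. In total 21 members were called higher, or 43.8%, where 31.1% of all genes tested were. Another 13 members were called lower, or 27.1%, where 31.6% of all genes were. The median member changed by 0.06 on the log2 scale and the median gene by -0.02. The members ran from -1.08 (PSMB9) to 0.60 (POMP). The higher calls depend on the scaling. By total counts alone only POMP, PSMD8 and PSMD13 stayed higher, 17 others lost the call, and PSMD11 turned lower. The 13 lower calls all stayed, and 25 members in all were then lower, with a member median of -0.22 against -0.30 for all genes. Leaving out TMM moved the members down by a median of 0.28. Lower calls could therefore hardly be lost, and their staying is no test of them.

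**Figure D1:**
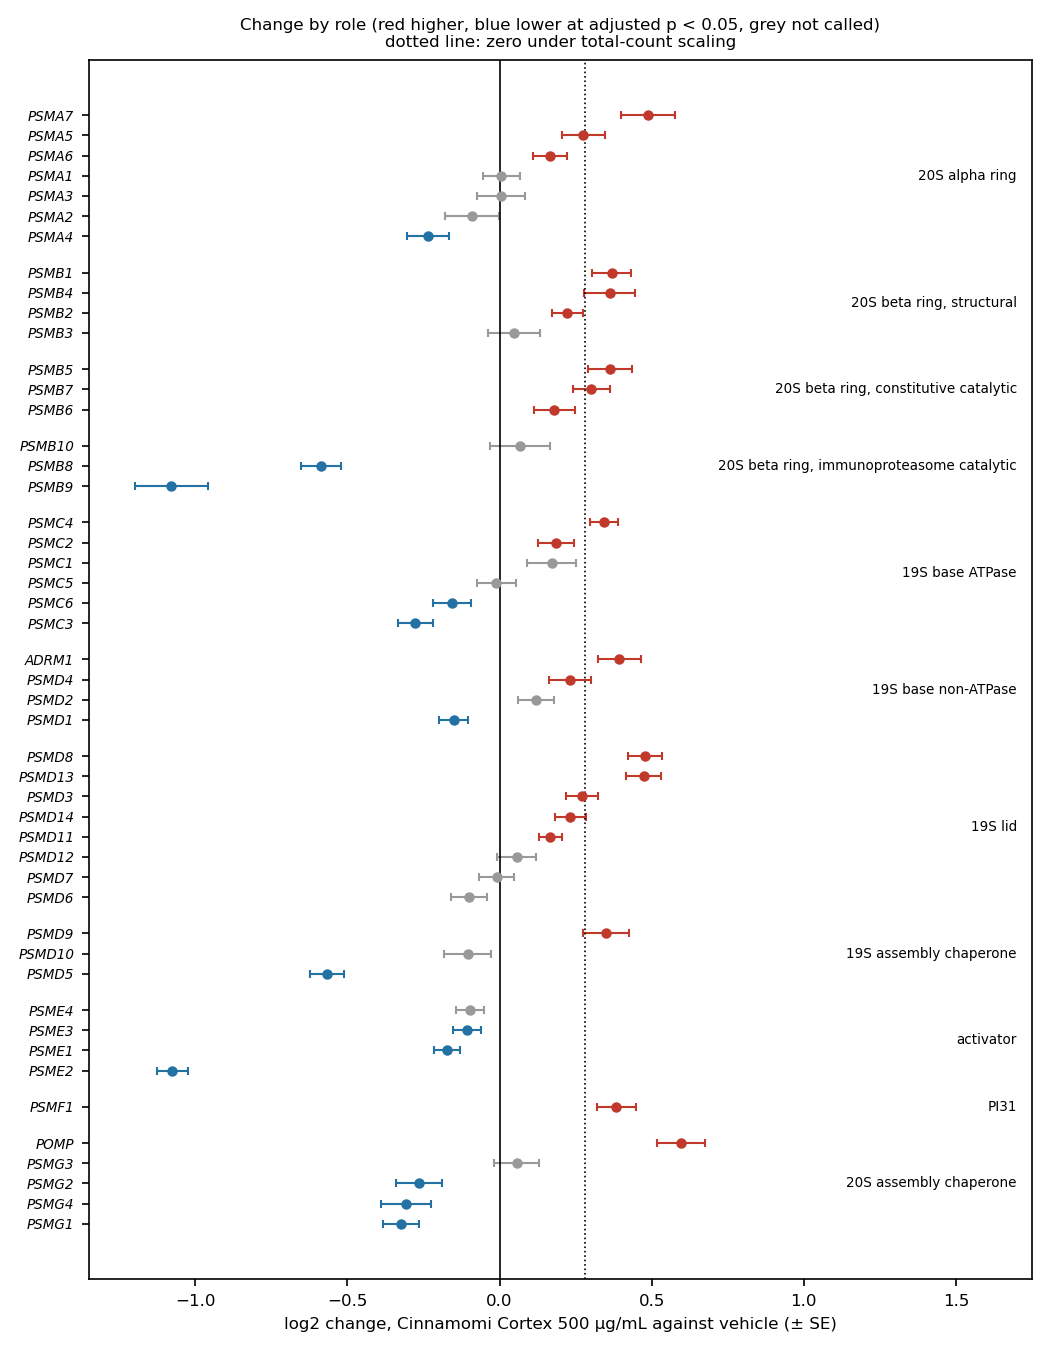
Log2 change of the 48 members (points, with SE as bars) under Cinnamomi Cortex at 500 µg/mL against vehicle, 3 libraries each, grouped by role; red and blue mark higher and lower calls, grey no call, and the dotted line, at 0.28, is where zero lies under total-count scaling. PSMB9, PSME2, PSMB8 and PSMD5 lie far to the left, and POMP, PSMA7, PSMD8 and PSMD13 at the right end.

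Of the 3 immunoproteasome genes 2 were called lower. PSMB8, whose product takes the place of PSMB5, stood at 21.4, 22 and 19.4 CPM in the vehicle libraries and at 14.8, 12.6 and 14.5 CPM at 500 µg/mL. Its groups did not overlap, and its log2 change was -0.59 (SE 0.066, adjusted p = 7.88e-11). PSMB9, which replaces PSMB6, stood at 6.09, 6.29 and 7.18 CPM in vehicle and at 3.21, 3.08 and 2.95 CPM at 500 µg/mL. It fell by 1.08 (SE 0.12, adjusted p = 4.96e-11), again with no overlap. PSMB10, which replaces PSMB7, was not called: its libraries stood at 7.93, 9.67 and 8.74 CPM in vehicle and at 9.80, 8.96 and 8.86 CPM at 500 µg/mL. Its change of 0.07 has a 95% interval from -0.13 to 0.27, so the fall seen in PSMB9 lies outside it. By total counts PSMB10 was still not called against vehicle (-0.21), but it was called lower against Astragali Radix at 500 µg/mL (-0.30, adjusted p = 0.0198), in the dose trend (-0.14, adjusted p = 0.0203) and in the difference of trends (-0.19, adjusted p = 0.0382).

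PSME2, the PA28 beta subunit, showed the change with the lowest adjusted p among all members. It was at 224, 245 and 225 CPM in vehicle and at 110, 103 and 116 CPM at 500 µg/mL, a fall of 1.08 (SE 0.051, adjusted p = 8.61e-24). Its partner PSME1, the alpha subunit, went from 172 ± 7.64 CPM (SD, n = 3) to 152 ± 7.86 CPM, a fall of 0.17 (SE 0.044, adjusted p = 5.74e-04). Ratios within a library do not depend on the scaling. PSME2 was 132% to 136% of PSME1 in vehicle libraries and 68.6% to 75.4% at 500 µg/mL. PSMB8 was 7.49% to 7.57% of PSMB5 in vehicle and 3.68% to 4.15% at 500 µg/mL, and PSMB9 went from 9.31% to 11% of PSMB6 down to 3.71% to 4.57%. PSMB10 was 7.41% to 9.36% of PSMB7 in vehicle and 6.88% to 7.41% at 500 µg/mL, ranges that touch.

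These falls were graded with dose. At 100 µg/mL PSMB8 was at 15.8, 14.9 and 14.6 CPM, PSMB9 at 4.20, 4.81 and 4.37 CPM and PSME2 at 164, 168 and 177 CPM, all below every vehicle library. Their changes from vehicle at that dose were -0.47, -0.55 and -0.45, the lowest among 7 members called lower (14.6% of members against 9.36% of all genes, and no member was called higher). The other 4 were PSMG2, PSMA6, PSME1 and PSME3, between -0.28 and -0.13. The count was 4 without vehicle replicate 1, and also without library 2 at 100 µg/mL. By total counts it was 18, with the share of all genes under that scaling not given here. Within the extract, 100 against 20 µg/mL gave 2 calls, both lower, where 3.48% of all genes were lower: PSMB8 (-0.35, SE 0.065, adjusted p = 1.86e-04) and PSME2 (-0.32, SE 0.050, adjusted p = 8.88e-06). PSMB9 moved by -0.34 (SE 0.11) in that step and missed the threshold, with an adjusted p of 0.0519. At 20 µg/mL the 3 genes differed from vehicle by -0.13, -0.20 and -0.13, and none was called.

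**Figure D2:**
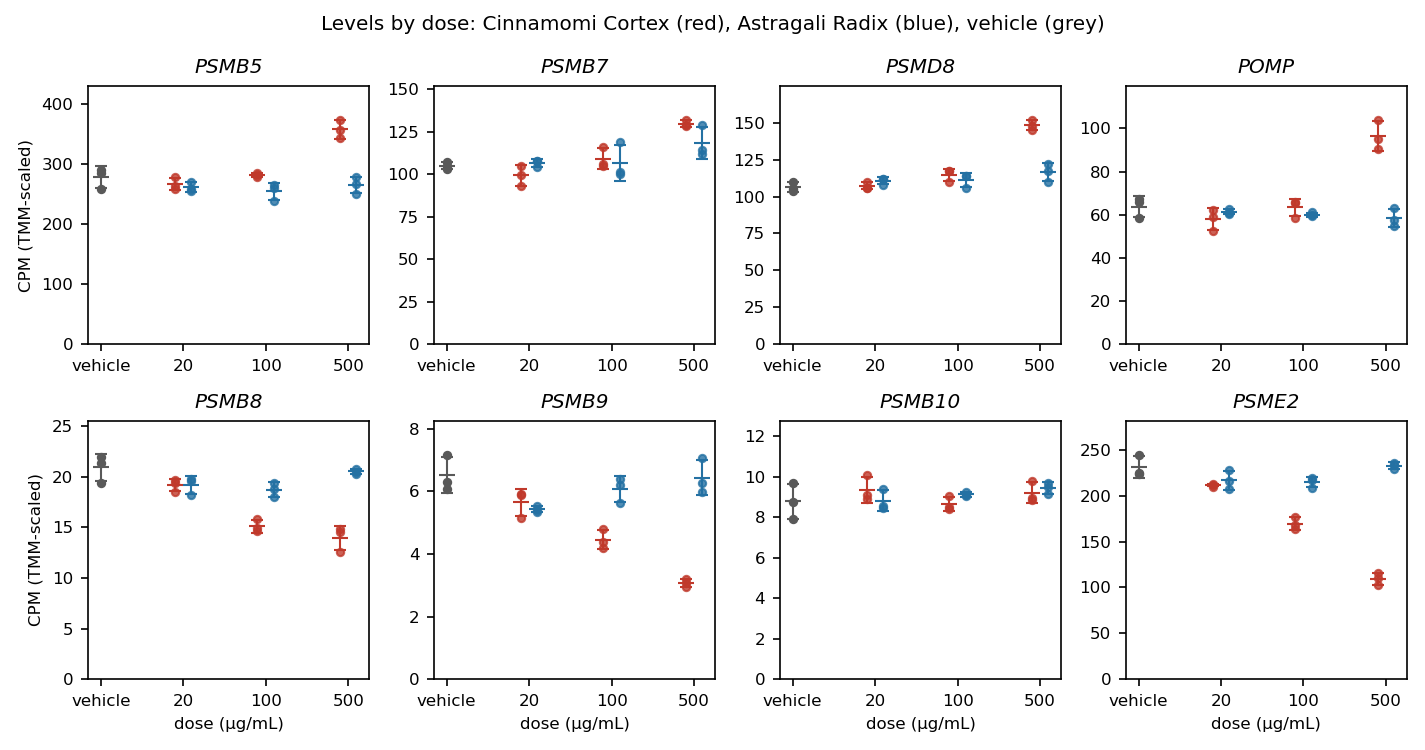
TMM-scaled CPM of 8 members (y axes from 0) by dose in µg/mL for Cinnamomi Cortex (red), Astragali Radix (blue) and vehicle (grey), 3 libraries each as points with mean and SD. PSMB8, PSMB9 and PSME2 step down from 20 to 500 µg/mL in red, while the red points of POMP, PSMD8, PSMB5 and PSMB7 rise at 500 µg/mL; PSMB10 stays between 7.93 and 10.1 CPM in the vehicle and red points.

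Promoters are shown for PSMB9, PSME2 and PSMB8, the 3 members with the lowest changes, and for POMP and ADRM1, a chaperone and a ubiquitin receptor called higher after TMM, a set chosen after the values were seen. RefSeq windows on GRCh38.p14, from 250 bases before to 50 after a start, exist for 42 of the 48 members (52 windows). Each is printed 5′ to 3′ on the gene's strand, with matches to the antioxidant response element core TGACNNNGC or to the interferon-stimulated element, on either strand, in capitals. PSMB8 lies at chr6:32843998-32844297 on the minus strand (1 of its 2 windows, the one with a match), PSMB9 at chr6:32853942-32854241 on the plus strand and PSME2 at chr14:24146561-24146860 on the minus strand. POMP lies at chr13:28658880-28659179 and ADRM1 (1 of 2 windows) at chr20:62302646-62302945, both on the plus strand.
PSMB8: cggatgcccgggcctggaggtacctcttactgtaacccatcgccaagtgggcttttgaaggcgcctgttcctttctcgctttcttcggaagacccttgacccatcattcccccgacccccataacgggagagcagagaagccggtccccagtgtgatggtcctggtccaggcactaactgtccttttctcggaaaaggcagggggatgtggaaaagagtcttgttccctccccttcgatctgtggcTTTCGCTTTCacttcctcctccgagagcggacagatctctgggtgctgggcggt
PSMB9: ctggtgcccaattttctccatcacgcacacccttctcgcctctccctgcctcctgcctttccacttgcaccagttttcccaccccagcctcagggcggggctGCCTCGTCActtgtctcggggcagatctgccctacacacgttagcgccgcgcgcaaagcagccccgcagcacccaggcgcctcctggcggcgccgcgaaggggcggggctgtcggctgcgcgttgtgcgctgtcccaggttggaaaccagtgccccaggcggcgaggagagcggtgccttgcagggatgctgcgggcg
PSME2: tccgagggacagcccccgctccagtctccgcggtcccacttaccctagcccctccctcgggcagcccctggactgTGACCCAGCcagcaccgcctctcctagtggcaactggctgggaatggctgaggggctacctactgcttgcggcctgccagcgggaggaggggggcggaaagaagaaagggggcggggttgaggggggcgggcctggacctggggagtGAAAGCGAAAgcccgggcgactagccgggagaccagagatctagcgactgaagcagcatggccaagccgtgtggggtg
POMP: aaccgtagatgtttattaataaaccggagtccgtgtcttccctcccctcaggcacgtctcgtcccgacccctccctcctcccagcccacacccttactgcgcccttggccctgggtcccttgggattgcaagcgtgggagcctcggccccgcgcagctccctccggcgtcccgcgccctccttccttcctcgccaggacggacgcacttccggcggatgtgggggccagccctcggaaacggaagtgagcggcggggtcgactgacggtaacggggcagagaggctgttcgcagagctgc
ADRM1: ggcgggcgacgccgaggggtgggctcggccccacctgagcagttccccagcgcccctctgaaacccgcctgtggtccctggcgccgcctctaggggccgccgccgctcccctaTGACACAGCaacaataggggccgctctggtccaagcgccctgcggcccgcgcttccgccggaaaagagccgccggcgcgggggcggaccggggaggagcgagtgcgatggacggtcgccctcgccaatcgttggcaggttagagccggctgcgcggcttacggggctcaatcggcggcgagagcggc
PSMB8 and PSME2 held the interferon-stimulated letters, PSMB9 and POMP did not, and PSMB9, PSME2 and ADRM1 held the antioxidant core. Over the members, 7 of 52 windows (13.5%) held the interferon-stimulated element, against 3.57% of the 35116 windows of all genes, and of those 7 genes 5 were called lower (PSMA4, PSMB8, PSME1, PSME2 and PSMG4), PSMB4 higher after TMM, and PSMB10 not. The antioxidant core was in 17 windows (32.7%, against 13.3% of all windows), in 16 genes, of which 8 were called lower, 4 higher after TMM (ADRM1, PSMC4, PSMD3 and PSMD9) and 4 not. The CCAAT box was in 21 windows (40.4%, against 34.6%), in 20 genes, of which 8 were called higher after TMM, 5 lower and 7 not. The heat shock element GAANNTTC was in none, against 6.77% of all windows. Beside these calls, 31.1% of all genes tested and 43.8% of members were called higher, and 31.6% and 27.1% lower. Whether the calls go with these letters was not tested. Matches describe letters in these windows only.

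All 3 constitutive catalytic genes were called higher at 500 µg/mL. PSMB5, the chymotrypsin-like subunit, was at 286, 291 and 258 CPM in vehicle and at 356, 343 and 374 CPM with extract, a change of 0.36 (SE 0.072, adjusted p = 2.21e-05). PSMB7, the trypsin-like subunit, was at 107, 103 and 105 CPM in vehicle and at 132, 128 and 129 CPM with extract (0.30, SE 0.060, adjusted p = 2.00e-05). PSMB6, the caspase-like subunit, was at 63.8, 67.6 and 65.3 CPM and at 70.2, 73.0 and 79.7 CPM (0.18, SE 0.068, adjusted p = 0.0203). None of the 3 pairs of groups overlapped. The call of PSMB6 was lost without vehicle replicate 1 (adjusted p = 0.0685) and without extract library 3 (adjusted p = 0.148). By total counts none of the 3 was called, with changes of 0.08, 0.02 and -0.10 for PSMB5, PSMB7 and PSMB6.

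Among the other core genes, 3 of 4 structural beta genes and 3 of 7 alpha genes were called higher and PSMA4 lower (-0.24). By total counts none of these 11 genes was higher, and 4 alpha genes and PSMB3 were lower. PSMB1 was at 132, 131 and 132 CPM in vehicle and at 171, 165 and 174 CPM with extract, a change of 0.37 (SE 0.063, adjusted p = 1.81e-06). PSMA7, an alpha-ring gene, went from 123, 151 and 136 CPM to 180, 181 and 213 CPM (0.49, SE 0.090, adjusted p = 6.92e-06). By total counts neither kept its call (0.09 and 0.21). PSMA1 and PSMA3 differed from vehicle by 0.01 each, so the changes within 1 ring ran from -0.24 (PSMA4) to 0.49 (PSMA7).

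POMP, the chaperone that matures the core, had the highest change of all members. It stood at 65.8, 67.1 and 58.4 CPM in vehicle and at 90.5, 95.1 and 104 CPM at 500 µg/mL, a change of 0.60 (SE 0.079, adjusted p = 5.62e-09), and kept its call by total counts (0.32, adjusted p = 0.00277). The libraries did not overlap. The dedicated 20S chaperones did not rise with it against vehicle: PSMG1, PSMG4 and PSMG2 were called lower (-0.33, -0.31 and -0.27), and PSMG3 was not called (0.06). PSMG1 and PSMG2 were already near that level at 20 µg/mL. In the dose trend 2 of the 5 core chaperone genes, POMP included, were called higher and 1 lower. PI31, the PSMF1 product, stood at 251, 224 and 229 CPM in vehicle and at 325, 302 and 291 CPM with extract (0.38, SE 0.063, adjusted p = 6.50e-07), a call that total counts did not keep (0.10).

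In the 19S lid 5 of 8 genes were called higher and none lower, and by total counts 2 were higher and 4 lower (PSMD6, PSMD7, PSMD11 and PSMD12). PSMD8 was at 110, 105 and 104 CPM in vehicle and at 148, 145 and 152 CPM with extract, a change of 0.48 (SE 0.057, adjusted p = 4.00e-10). PSMD13 followed at 0.47 (SE 0.058, adjusted p = 8.07e-10), from 42.9 ± 3.78 to 59.6 ± 1.47 CPM (SD, n = 3). Both kept the call by total counts, at 0.20 and 0.19. PSMD3, the deubiquitinase PSMD14 and PSMD11 changed by 0.27, 0.23 and 0.17, and by total counts by -0.01, -0.05 and -0.11. In the base, the ubiquitin receptor ADRM1 was at 127, 137 and 119 CPM in vehicle and at 172, 161 and 170 CPM with extract (0.39, SE 0.072, adjusted p = 5.90e-06), and by total counts 0.11 with no call. The ATPases were divided after TMM: PSMC4 (0.34) and PSMC2 (0.19) were called higher and PSMC3 (-0.28) and PSMC6 (-0.16) lower. PSMC1 and PSMC5 were not called. By total counts PSMC4 and PSMC2 lost the call (0.065 and -0.094), and of the 6 ATPase genes 0 were higher and 3 lower. PSMC4 was at 94.9, 94.2 and 86.2 CPM in vehicle and at 112, 117 and 120 CPM with extract. Of the 19S chaperones, PSMD9 was called higher (0.35, and by total counts 0.07 with no call) and PSMD5 lower. PSMD5, which holds an ATPase module before assembly, fell from 48, 45.0 and 45.2 CPM to 31.3, 32.6 and 29.3 CPM (-0.57, SE 0.055, adjusted p = 1.28e-12), with no overlap.

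Across the 3 doses of Cinnamomi Cortex, the trend per 5-fold step was called upward for 27 members, or 56.2%, where 30.5% of all genes rose, and downward for 6, or 12.5%, where 31.4% fell. By total counts 7 members rose and 19 fell, but the shares of all genes under that scaling are not given here. POMP had the steepest rise, 0.37 per step (SE 0.040, adjusted p = 2.30e-11), followed by PSMA7 at 0.30 and PSMD8 at 0.23. PSME2 and PSMB9 had the steepest falls, -0.47 (SE 0.026, adjusted p = 1.35e-21) and -0.44 (SE 0.061, adjusted p = 1.92e-08). PSMD5, PSMB8, PSMC3 and PSMG4 were the other members that fell, by changes of -0.24, -0.23, -0.14 and -0.11 per step. After TMM, PSMG1, PSMG2 and PSMC6, called lower against vehicle, had no downward trend call. At 20 µg/mL they stood at 58.6, 34.9 and 58.1 CPM and at 500 at 56.4, 34.2 and 57.4 CPM. In vehicle they stood at 70.7, 41.2 and 64 CPM. PSME3, also called lower against vehicle, stood at 230 CPM at 20 µg/mL, 251 CPM at 500 and 271 CPM in vehicle. By total counts the trends of these genes were called lower. The rises were not even steps: POMP stood at 57.9 ± 5.06, 63.4 ± 4.08 and 96.5 ± 6.84 CPM (SD, n = 3 each) at 20, 100 and 500 µg/mL.

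Astragali Radix, the other extract of set 6, serves as a comparison within the set. At 500 µg/mL, Cinnamomi Cortex was called higher for 22 members (30.9% of all genes were) and lower for 11 (31.8% of all genes were). The numbers by total counts were 4 and 21, with no share of all genes given beside them. PSME2 was at 236, 229 and 234 CPM with Astragali Radix, a difference of -1.09 (SE 0.051, adjusted p = 6.57e-24). PSMB9 differed by -1.05 (SE 0.12), PSMD5 by -0.59 (SE 0.056) and PSMB8 by -0.56 (SE 0.067). POMP differed by 0.73 (SE 0.081, adjusted p = 4.92e-11) and PSMB5 by 0.43 (SE 0.072, adjusted p = 1.07e-06). PSMB7 passed only narrowly, at 0.14 (SE 0.060, adjusted p = 0.044), with overlapping libraries, and leaving out any of 5 of the 6 libraries ended its call. The dose trends themselves differed between both extracts for 27 members, 19 higher and 8 lower under Cinnamomi Cortex, where 25.0% and 25.9% of all genes did. The numbers by total counts were 1 and 20, again without the share of all genes.

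The lists around the proteasome, counted for Cinnamomi Cortex at 500 µg/mL against vehicle, are described by their counts, to be read beside the 31.1% of all genes called higher and the 31.6% called lower. Of 17 proteasome-associated factors 9 were called higher and 4 lower. The shuttle and autophagy receptor SQSTM1 went from 173 ± 4.57 to 806 ± 37.3 CPM (2.22, SE 0.046), ZFAND2A and ZFAND5 rose by 0.57 and 0.49, and the proteasome-bound deubiquitinase UCHL5 fell by 0.64 on the log2 scale. By total counts 3 factors were higher and 9 lower.

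Of the 11 genes for NFE2L1, its processing and its small MAF partners, 8 were called higher and 1 lower, and by total counts 4 and 3. NFE2L1 itself went from 220 ± 6.51 to 388 ± 4.86 CPM (0.82, SE 0.039, adjusted p = 8.99e-24), and MAFF and MAFK rose by 1.82 and 1.14. DDI2, the protease that activates NFE2L1, went from 114 ± 5.35 to 70.2 ± 4.17 CPM (-0.70, SE 0.046). Among NRF2 targets, 11 of 12 were tested and 10 were called higher, under both scalings. SLC7A11, the cystine transporter, and GCLC, the first enzyme of glutathione synthesis, rose by 2.32 and 1.47. Of 9 cytosolic heat shock genes 4 were called higher and 3 lower, and by total counts 1 and 4. HSPA1A rose by 0.73, whereas HSP90AA1 fell from 1568 ± 20.5 to 674 ± 19.5 CPM (-1.22, SE 0.065), with HSPH1 and DNAJA1 at -0.77 and -0.45. The HSPA1A rise was seen against vehicle only. Against Astragali Radix at 500 µg/mL it differed by -0.03 (adjusted p = 0.811), with a dose trend of -0.02 (adjusted p = 0.74). HSP90AA1 was lower in both, by changes of -1.38 and -0.63 per step.

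Of 15 genes for antigen presentation and interferon factors 7 were called higher and 5 lower (4 and 7 by total counts), a lower share close to that of all genes, 31.6%. NLRC5, a transactivator of class I genes, stood at 7.18 ± 0.665 CPM in vehicle and 2.43 ± 0.584 CPM with extract (-1.55, SE 0.13, adjusted p = 5.08e-15). STAT2, the aminopeptidase gene ERAP2 and the transporter gene TAP2 were lower by fitted changes of -0.69, -0.80 and -0.65. TAP1, which lies beside PSMB9 on chromosome 6, did not follow it, at 38.1 ± 0.348 and 39.3 ± 0.721 CPM (0.05, SE 0.057, adjusted p = 0.505, a sign that turns by total counts). HLA-E and the loading factor TAPBP rose by 0.72 and 0.85. Markers moved in the same comparison. Of 9 hepatocyte markers 5 were called higher and 2 lower, and their sum was 66522 to 66930 CPM against 56637 to 58627 in vehicle. Of 11 markers of other cell types 5 were tested, 2 called higher and 1 lower, and their sum was 3040 to 3440 CPM against 1215 to 1358. That sum was mostly LYZ, with 3161 against 1224 CPM, and CD68, with 142 against 58.4 CPM. The leukocyte genes PTPRC and CD3E and the stromal genes COL3A1, DCN and LUM averaged 0 CPM in both groups. The part of these markers, of the mitochondrial share and of the TMM factors in the members' changes was not tested.

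At 500 µg/mL the other 5 extracts gave between 0 and 12 calls against vehicle. The comparator matters here: against the mean of the 20 µg/mL groups the counts were 20 for Sagunja-tang, 17 for Cnidii Rhizoma, 10 for Astragali Radix, 6 for Rehmanniae Radix Preparata and 3 for Samul-tang, all higher. The share of all genes called against that mean is not given here, so whether these counts exceed it cannot be read from them. Cnidii Rhizoma had 3 members called higher (6.11% of all genes were) and 1 lower (5.67% were). These were the lid gene PSMD11 (0.28, SE 0.038, adjusted p = 1.68e-06), ADRM1 (0.33, SE 0.072), the ubiquitin receptor gene PSMD4 (0.22, SE 0.069) and, lower, the chaperone PSMG2 (-0.31, SE 0.076). Rehmanniae Radix Preparata had 2 higher (3.87% of all genes), PSMD11 (0.16, SE 0.038) and PSMC4 (0.18, SE 0.046), and 1 lower (3.58%), PSMG2 (-0.26, SE 0.075). Astragali Radix had 0 in either direction (1.56% and 1.48% of all genes), in edgeR, with 6 members at an unadjusted p under 0.05 and 1 call by DESeq2. Sagunja-tang had 3 higher (6.76% of all genes), PSMD11 (0.21, SE 0.038), PSME4 (0.15), which encodes the PA200 cap, and PSMD1 (0.16), and 2 lower (5.52%), PSME1 (-0.14) and PSMB8 (-0.19, SE 0.062, adjusted p = 0.0317). Samul-tang had 1 higher (7.44%), PSMD11 (0.12, SE 0.038, adjusted p = 0.029), and 11 lower (6.24%), led by PSME3 (-0.20), PSMG2 (-0.33) and PSME2 (-0.21, SE 0.050). The Samul-tang total of 12 was 5, 3 or 2 without vehicle replicate 1, vehicle replicate 2 or its library 3.

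These comparisons share the same 3 vehicle libraries. PSMD11 stood at 111, 111 and 108 CPM in vehicle. It stood at 124, 119 and 127 CPM with Cinnamomi Cortex, at 132, 124 and 126 CPM with Sagunja-tang and at 115, 124 and 120 CPM with Samul-tang, each above every vehicle library. PSMG2 was at 46.9, 38.9 and 37.9 CPM in vehicle, so 1 vehicle library stood above the others, and without it the PSMG2 calls of Cnidii Rhizoma, Rehmanniae Radix Preparata and Samul-tang at 500 µg/mL were lost. The Sagunja-tang calls other than PSMD11, and the PSMD11 call of Samul-tang, each failed when at least 1 vehicle library was left out.

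**Figure D3:**
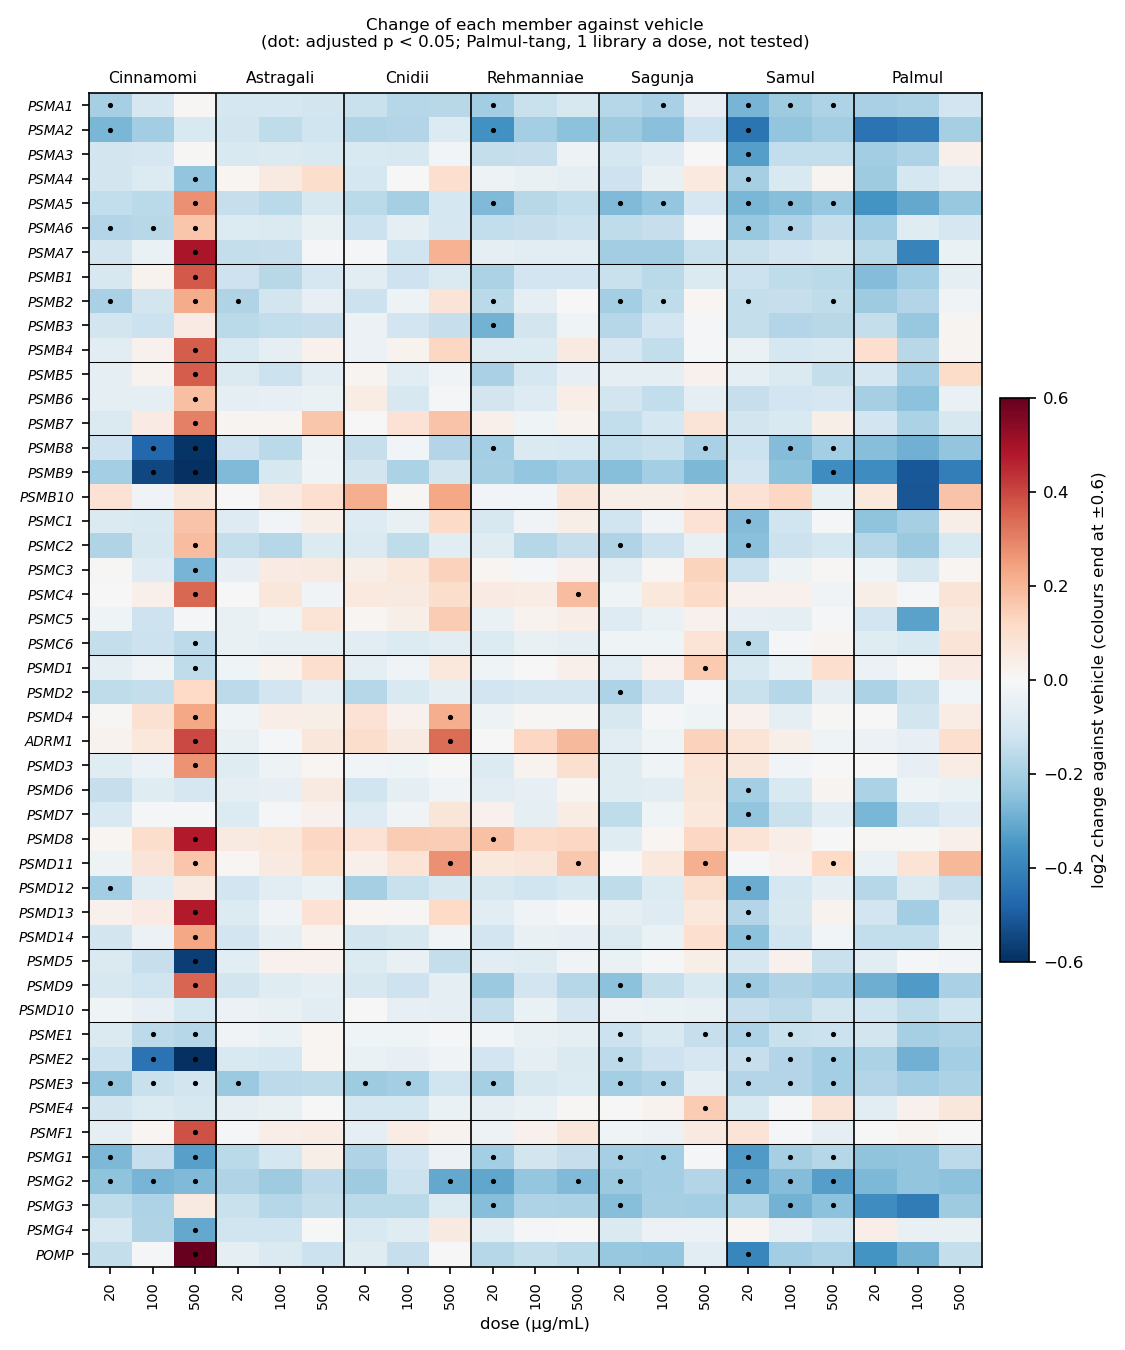
Log2 change of each member (rows, ordered by role) against vehicle for 7 extracts at 20, 100 and 500 µg/mL (columns); colours end at ±0.6, dots mark adjusted p under 0.05, and Palmul-tang, with 1 library a dose, was not tested. The column of Cinnamomi Cortex at 500 µg/mL stands out, and the 20 µg/mL columns are mostly pale blue.

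At the lowest dose the members lay mostly below vehicle. At 20 µg/mL between 35 and 45 of the 48 members lay below vehicle in each of the 6 extracts, with medians from -0.14 (Samul-tang) to -0.07 (Cnidii Rhizoma), while the median of all genes lay between -0.01 and 0.01. Samul-tang had 22 members called lower where 9.90% of all genes were, Sagunja-tang 11 where 5.13% were, and Rehmanniae Radix Preparata 10 where 3.04% were. Cinnamomi Cortex had 8 (3.31% of all genes), Astragali Radix 2 (1.37%) and Cnidii Rhizoma 1 (2.96%). The 1 member called higher at this dose was PSMD8 with Rehmanniae Radix Preparata (0.18). Under Samul-tang the lower calls took in 6 of 7 alpha genes, 5 of 8 lid genes and 3 of 5 core chaperones. PSMA2 had the lowest value (-0.44, SE 0.089, adjusted p = 4.23e-04), at 45, 38.3 and 50.9 CPM against 62, 64.8 and 54.5 CPM in vehicle. POMP, at 47.9, 44.4 and 53.5 CPM against 65.8, 67.1 and 58.4 CPM in vehicle, was at -0.39 (SE 0.081, adjusted p = 4.55e-04). Library 2 of this group was the lowest for both genes. Over all genes tested it also stood further from the other 2 libraries than they did from each other.

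The low-dose counts rest on the vehicle libraries. When vehicle replicate 1 was left out, Samul-tang had a count of 12, Sagunja-tang of 5, Cinnamomi Cortex of 2 and Rehmanniae Radix Preparata of 1. A fit of each extract's dose with vehicle alone gave Samul-tang 0 calls, Rehmanniae Radix Preparata 3 and Sagunja-tang 16. At 100 µg/mL the lower calls were 10 for Samul-tang (3.67% of all genes), 5 for Sagunja-tang (3.54%), 1 for Cnidii Rhizoma (1.43%) and 0 for Rehmanniae Radix Preparata and Astragali Radix (1.72% and 0.823%). For those last extracts 9 members each had an unadjusted p under 0.05 in edgeR, and DESeq2 made 0 and 1 calls. Without vehicle replicate 1 Samul-tang had 4 calls at 100 µg/mL and Sagunja-tang 0. No member was called higher at this dose.

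Within an extract, the dose trend does not use the vehicle. Sagunja-tang had 12 members with an upward trend, or 25.0%, where 2.70% of all genes rose, and Samul-tang 11, or 22.9%, where 4.48% did, and no member fell in either. By role, 5 of 8 lid genes were among them for Sagunja-tang and 6 of 8 for Samul-tang, but of the 14 genes of the beta and alpha rings other than the immunoproteasome genes only 2 and 1. For Sagunja-tang PSMD11 had the lowest adjusted p, at 0.10 per step (SE 0.019, adjusted p = 3.41e-04), from 111, 107 and 112 CPM at 20 µg/mL to 132, 124 and 126 CPM at 500. PSMD1, the base scaffold, followed at 0.11 (SE 0.024, adjusted p = 0.00214), from 175, 173 and 178 CPM to 210, 200 and 206 CPM, and PSMB2 at 0.11 (SE 0.025). For Samul-tang PSMD14 led at 0.12 per step (SE 0.026, adjusted p = 0.00342), from 67.3, 57 and 70.4 CPM to 80.1, 73.5 and 74.2 CPM, with PSMD1 at 0.10 and PSMD12 at 0.12. In all of these the 500 and 20 µg/mL libraries did not overlap. PSMB8, PSMB9 and PSMB10 were not called in either formula, with trends between -0.13 and 0.01. The Samul-tang trends rest on its 20 µg/mL library 2, without which 0 members were called, and on its 500 µg/mL libraries 1 and 3, without either of which 4 were, and a fit of its own groups alone also gave 0. Without 1 of 4 Sagunja-tang libraries the count was 3, 4, 7 or 7.

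Cnidii Rhizoma had 2 members with an upward trend where 1.35% of all genes rose, PSMD11 (0.12 per step, SE 0.019, adjusted p = 2.58e-05) and PSMB2 (0.10, SE 0.025). Rehmanniae Radix Preparata and Astragali Radix had 0 calls of trend in either direction (0.674% and 1.16% of all genes), with 9 members each at an unadjusted p under 0.05 in edgeR and 1 call each by DESeq2. Their 95% intervals stayed within 0.23 per step for every member. The extracts of sets 5 and 7 were compared in the same way. At 500 µg/mL 0 members differed between Cnidii Rhizoma and Rehmanniae Radix Preparata (0.705% of all genes, 7 members at an unadjusted p under 0.05, 0 calls by DESeq2) and 0 between Samul-tang and Sagunja-tang (0.885% of all genes, 16 members, 2 calls by DESeq2). Between the formulas 45 of the 48 members lay lower with Samul-tang, with a median of -0.10 against 0.001 for all genes. In both pairs the interval of every member lay within a 1.5-fold difference either way, and the widest reached 0.45 for PSMA7 between the set 5 extracts. The differences of trend gave 0 calls in both pairs (0.0680% and 0.142% of all genes), with 6 and 7 members at an unadjusted p under 0.05 and 0 calls by DESeq2.

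Palmul-tang, with 1 library per dose, was not tested. Against the vehicle mean, 1 member lay lower by over 1.2-fold at 500 µg/mL, 11 at 100 and 8 at 20, where 9.01%, 10.4% and 8.45% of all genes did, and 0 lay higher by that much. PSMB9 was below the vehicle mean at all 3 doses, at 4.89, 4.58 and 5.04 CPM against 6.52. PSMA2 was at 52.6, 45.1 and 44.5 CPM against 60.4. PSMD11 was at 126 CPM at 500 µg/mL against 110. The median member lay at -0.04, -0.19 and -0.17 from the highest dose to the lowest.

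Summed over the 48 genes, the TMM-scaled level was highest with Cinnamomi Cortex at 500 µg/mL, at 5692, 5492 and 5710 CPM against 5382, 5292 and 5050 CPM in vehicle, with no overlap. By total counts the order was the reverse, at 4572 to 4919 against 5084 to 5531 CPM. Samul-tang at 20 µg/mL had the lowest mean after TMM among the groups with 3 libraries, 4803 ± 101 CPM (SD, n = 3), below 5241 ± 172 CPM in vehicle. As a share of all counts the members took 0.457% to 0.492% with Cinnamomi Cortex at 500 µg/mL and 0.508% to 0.553% in vehicle.

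**Figure D4:**
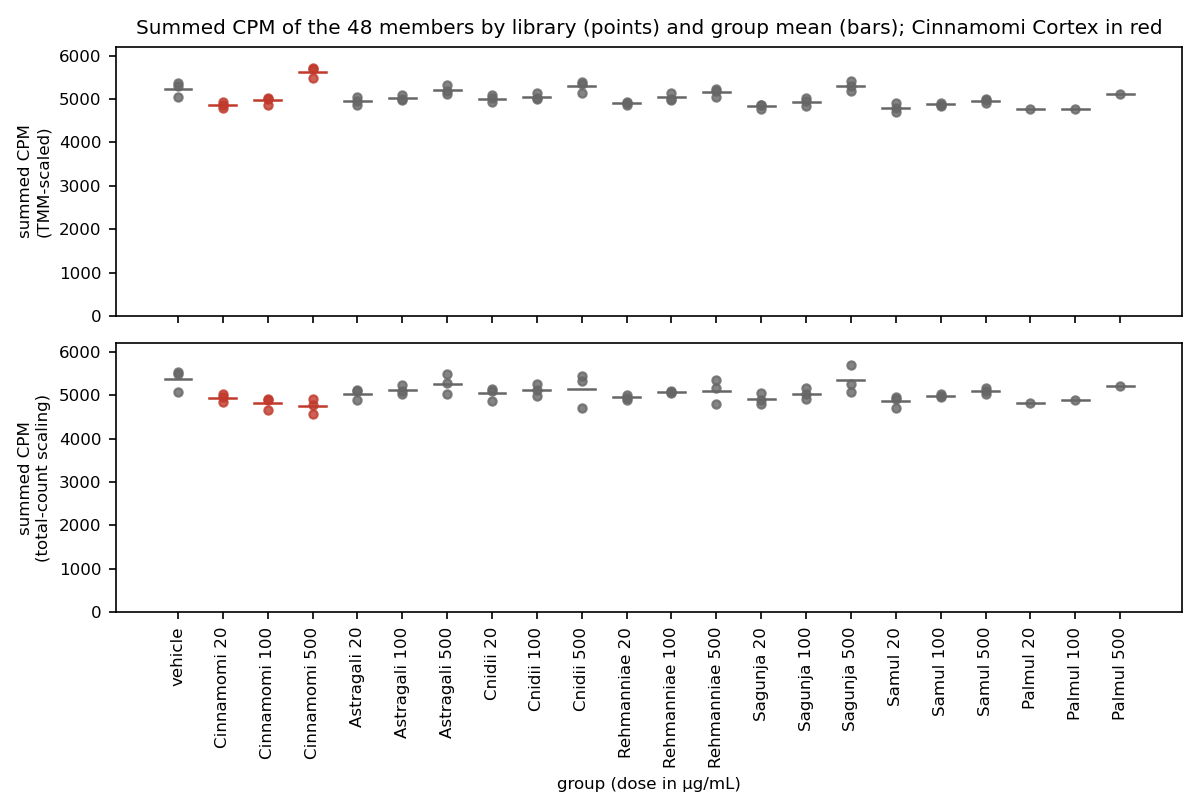
Summed CPM of the 48 members in each library (points) with group means (bars), TMM-scaled in the upper panel and by total counts in the lower, axes from 0; Cinnamomi Cortex is in red. Cinnamomi Cortex at 500 µg/mL lies above vehicle after TMM and under it by total counts.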

How the data were processed

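HepG2 cells were profiled by RNA-seq from a directional library kit, per the labels' protocols, in 60 libraries. Per the submitters' processing notes, the tools were RSEM 1.3.3, STAR 2.7.3a, Trim Galore 0.6.5 and FastQC 0.11.9, with build GRCh38. The values deposited by the authors are expected counts per gene, not normalized. Of those used 8.58% were not whole, and all were rounded to whole numbers. The annotation release and the strand setting of counting are not given in the sources used here. Of 270 sample columns, 210 belong to no sample described here and were not used. Totals ran from 16484546 to 34412234 counts per library, so counting error is small beside the spread between replicates for most members. No 2 libraries of a group agreed within sampling noise.

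Genes were filtered with filterByExpr (16167 of 60675 kept), scaled by TMM and fitted with edgeR 4.0.16 (glmQLFit and glmQLFTest, R 4.3.3), with 1 mean per group over 57 libraries and p-values adjusted by Benjamini and Hochberg over all genes tested. Palmul-tang stayed out of the fit. The SE is the log2 change divided by the square root of F, intervals are 1.96 SE either way, and a trend is the 500 minus 20 µg/mL difference per 5-fold step. The fit was tested on simulated data for Cinnamomi Cortex at 500 µg/mL against vehicle (16167 genes), with 50 genes changed at each fold. Of those changed by 1.2, 1.5, 2 and 3-fold, 62%, 96%, 98% and 100% were recovered, and 8 of 186 calls were false. The measured comparison had 5027 genes called higher and 5114 lower. Recovery where so many genes change was not tested, so these rates do not carry over to it.

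The members, lists and tests were chosen with earlier results of these data known. Values per library are given for the 6 catalytic subunits and, per role, the member with the largest absolute change under Cinnamomi Cortex at 500 µg/mL. For every other extract up to 3 members in each direction by adjusted p at 500 µg/mL and up to 3 by trend are named, and of each other list up to 4 genes by adjusted p; any further name was chosen after its values were seen. The deviations of same-numbered libraries correlated above 0.1 in each of 3 pairs for Samul-tang at 500 and 20 µg/mL (r from 0.108 to 0.275), the groups of its trend. In every other comparison at least 1 pair did not. The labels name no shared source for a number. DESeq2 1.42.0, RLE scaling, total counts, no filter, a replicate block, smaller fits, the mean of the 20 µg/mL groups as comparator, and leaving out libraries were tried. Total-count scaling was added after seeing the data. Member transcripts and promoter windows came from GENCODE 29 and RefSeq GRCh38.p14. Some genes of the other lists are not reported here.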

Additional observations from a re-analysis of the deposited data

Results flagged for a closer look

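The dose trends of Cinnamomi Cortex and Astragali Radix, extracts of 1 set, differed by a test of the difference itself for 19 members that were higher and 8 that were lower under Cinnamomi Cortex, where 25.0% and 25.9% of all genes were. Among the catalytic genes, the difference of trend per 5-fold step was 0.20 for PSMB5, 0.12 for PSMB7, -0.28 for PSMB8 and -0.56 for PSMB9. PSME2, the PA28 beta gene, differed by -0.53 and the chaperone PSMD5 by -0.28. POMP differed by 0.41, PSMA7 by 0.23, PSMB1 by 0.22, PSMD8 by 0.20, PSMF1 by 0.19, PSMC4 by 0.18 and ADRM1 by 0.13. By total counts 1 member was higher and 20 lower, with the shares of all genes under that scaling not given here.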

How the results depend on the processing

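Depth does not limit most members, but PSMB9 and PSMB10, the lowest catalytic genes, have the widest errors among the catalytic genes. Counts are members called, in either direction unless stated. The shares of all genes called under the settings below are not given here. By total counts alone, Cinnamomi Cortex at 500 µg/mL gave 3 higher and 25 lower, its trend 7 and 19, the difference from Astragali Radix 4 and 21, the difference of trends 1 and 20, and its 100 and 20 µg/mL doses 18 and 4. The same scaling gave 8 calls for Cnidii Rhizoma at 500 µg/mL, mostly lower, 3 at 20 and 1 for its trend, 1 and 7 for Rehmanniae Radix Preparata at 500 and 20, 1 for Astragali Radix at 500, 2, 2 and 5 for Sagunja-tang from 500 to 20 and 5 for its trend, and 4 and 5 for Samul-tang at 500 and 100. PSMB6 turned to -0.10 against vehicle, -0.017 for its trend and -0.039 against Astragali Radix, and PSMB7 to -0.13 against Astragali Radix. With the mean of the 20 µg/mL groups in place of vehicle, the counts at 500, 100 and 20 µg/mL were 17, 0 and 0 for Cnidii Rhizoma and 20, 0 and 0 for Sagunja-tang. They were 3, 0 and 7 for Samul-tang, where PSME3 turned to 0.006 at 500 µg/mL, 6 and 0 for Rehmanniae Radix Preparata and 10 and 0 for Astragali Radix at 500 and 20, and 0 for Cinnamomi Cortex at 20. When the fit held the compared groups alone, counts were 2, 2 and 3 for Cnidii Rhizoma, 1 and 3 for Rehmanniae Radix Preparata at 500 and 20, 1 for Astragali Radix at 20, 1 for Sagunja-tang at 500, 4 and 0 for Samul-tang at 500 and 20, and 0 for its trend. Without the filter, they were 2 and 4 for Cnidii Rhizoma at 100 and 20 and 5 for its trend, 3 and 2 for Rehmanniae Radix Preparata at 500 and 100 and 2 for its trend, 1 for Sagunja-tang at 500, 2 between the set 5 extracts, and 1 for each difference of trends in sets 5 and 7. DESeq2 gave 4 calls for Cnidii Rhizoma at 20, 1 each for Astragali Radix at 500, at 100 and for its trend, 1 for the Rehmanniae Radix Preparata trend and 2 between Samul-tang and Sagunja-tang. Without library 1 of set 6, the counts were 2 for Cnidii Rhizoma at 20, 5 for Cinnamomi Cortex at 20, 1 each for Astragali Radix at 100 and 20, and 5 lower for the difference of trends. The causes of these changes were not tested.

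Over every group of a comparison, in 0 of 31 comparisons did all same-numbered pairs correlate above 0.1 (r from -0.17 to 0.28, median 0.04). With a replicate block the Samul-tang trend, whose 500 and 20 µg/mL libraries are an exception, had 12 calls against 11, and no named change lost its call. Elsewhere the count under the block was 3 for Cnidii Rhizoma at 20 µg/mL and 1 each for Astragali Radix at 500 and 100.

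Leaving out 1 library at a time, the counts at 500, 100 and 20 µg/mL ranged from 2 to 7, 0 to 2 and 1 to 3 for Cnidii Rhizoma, 2 to 3, 0 to 1 and 1 to 12 for Rehmanniae Radix Preparata, and 0 to 1, 0 to 1 and 1 to 2 for Astragali Radix. They ranged from 1 to 6, 0 to 9 and 2 to 16 for Sagunja-tang and 2 to 12, 4 to 14 and 12 to 24 for Samul-tang. For Cinnamomi Cortex they ranged from 20 to 22 higher and 10 to 14 lower at 500, 4 to 9 at 100 and 2 to 10 at 20. Against Astragali Radix at 500 µg/mL, Cinnamomi Cortex had 19 to 21 higher, always below the 22 of the full fit, and 10 to 12 lower. Trends ranged from 1 to 4 for Cnidii Rhizoma, 3 to 12 for Sagunja-tang and 0 to 15 for Samul-tang, and the contrasts within sets 5 and 7 from 0 to 1. Of 69 named changes 18 lost their call without at least 1 library, and 0 reversed.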

Other observations

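The lid gene PSMD11, singled out after its values were seen, was at 137, 124 and 139 CPM with Cnidii Rhizoma at 500 µg/mL, at 124, 122 and 125 CPM with Rehmanniae Radix Preparata and at 124, 114 and 118 CPM with Astragali Radix, against 111, 111 and 108 CPM in vehicle. The Astragali Radix change of 0.11 was not called (adjusted p = 0.116). PSMD11 was thus above every vehicle library in all 18 libraries of the 6 replicated extracts at 500 µg/mL, in comparisons that share the vehicle libraries. By total counts its sign turned with Cinnamomi Cortex (-0.11). The ratio of POMP to PSMB5 within a library, also chosen after seeing the values, was 22.7% to 23.1% in vehicle, 25.4% to 27.8% with Cinnamomi Cortex at 500 µg/mL and 15.1% to 20.6% with Samul-tang at 20 µg/mL. The 15.1% was library 2 of that Samul-tang group, beside 19.2% and 20.6%. Neither range was particular to its group: Cnidii Rhizoma at 500 µg/mL ran from 21.3% to 26.7%. Sagunja-tang at 100 µg/mL ran from 17.7% to 22.2%, and Cinnamomi Cortex at 20 µg/mL from 18.8% to 24%.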
